A study of Mus musculus with 2 samples.

Results

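The genes described here are those of a mouse promoter tiling array whose promoters carried no CpG-dense probe. They were chosen from the probe sequences alone. A gene, by its array name, was taken when it lay on a numbered chromosome, had at least 20 probes annotated as promoter or as inside the gene, was not an olfactory receptor by name, and had no probe with more than 1 CpG dinucleotide. Of 11184 genes that met the other limits, 583 met the CpG limit, 331 on slide 1 and 252 on slide 2. They carried 16013 probes. The remaining 10601 genes each had at least 1 probe with 2 or more CpG and are called the other genes below.

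Binding of Ring1B in embryonic stem (ES) cells of the mouse was measured by ChIP-chip, in which DNA recovered with an antibody is compared with input DNA on an array of promoter probes. DNA bound by Ring1B, recovered with a monoclonal antibody and labelled with Cy5, competed on each array with input DNA labelled with Cy3. No genotype, strain or treatment was given in the labels. The 2 arrays were 2 slides of 1 promoter set with no probe in common, so each promoter was read once. The sample titles give ES cells, and were used here although the source names start with the word Muscle. There was no replicate, no mock immunoprecipitation and no dye swap, and therefore no test and no p-value. A DNA ratio does not report expression, so the labelled cell type could not be checked against its markers. None of the 9 ES cell genes and none of the 8 fibroblast genes on the lists used was among the 583.

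Ring1B is the ubiquitin ligase of Polycomb repressive complex 1 (PRC1), which marks histone H2A at silenced genes. In ES cells PRC1 is known for sitting at CpG islands, the CpG-dense stretches around the starts of many genes, above all at the islands of silent developmental regulators. Most of the genome has lost its CpG by mutation of methylated cytosine, and genes used in a single tissue often start in such CpG-poor DNA. TATA boxes, which place the start of transcription, are known to be more common at CpG-poor promoters.

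Promoter sequences show what the CpG limit selects. The following are from RefSeq, GRCm38.p6, 250 bases before to 50 after the start of transcription, written 5′ to 3′ along the gene's strand. Capitals mark each CpG and, where it lay 60 to 16 bases before the start, TATAAA. Cts8 (chr13:61255299-61255598, minus strand), Grm6 (chr11:50850435-50850734, plus strand) and Cryba1 (chr11:77725244-77725543, minus strand) are the promoters of the 3 genes with the highest Ring1B ratio among the 583. Vmn1r233 (chr17:20994637-20994936, minus strand) is among the 10 highest, and Vil1 (chr1:74409134-74409433, plus strand) is the lowest.
Cts8: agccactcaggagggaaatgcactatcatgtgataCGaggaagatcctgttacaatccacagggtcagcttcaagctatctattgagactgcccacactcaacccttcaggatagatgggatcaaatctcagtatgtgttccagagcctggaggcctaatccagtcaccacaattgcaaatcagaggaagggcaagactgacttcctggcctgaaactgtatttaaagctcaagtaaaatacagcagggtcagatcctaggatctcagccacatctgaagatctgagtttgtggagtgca
Grm6: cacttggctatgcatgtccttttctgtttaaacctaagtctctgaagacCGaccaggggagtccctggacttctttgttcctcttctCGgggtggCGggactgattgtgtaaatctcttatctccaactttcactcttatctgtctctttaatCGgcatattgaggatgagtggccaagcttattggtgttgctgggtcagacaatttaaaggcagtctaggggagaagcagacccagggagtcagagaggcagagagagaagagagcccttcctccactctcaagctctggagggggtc
Cryba1: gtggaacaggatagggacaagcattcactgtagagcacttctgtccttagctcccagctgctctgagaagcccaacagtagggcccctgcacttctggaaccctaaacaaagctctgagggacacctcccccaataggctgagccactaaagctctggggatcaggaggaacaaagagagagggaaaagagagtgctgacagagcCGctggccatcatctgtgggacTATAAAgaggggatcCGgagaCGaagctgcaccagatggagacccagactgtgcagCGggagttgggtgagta
Vmn1r233: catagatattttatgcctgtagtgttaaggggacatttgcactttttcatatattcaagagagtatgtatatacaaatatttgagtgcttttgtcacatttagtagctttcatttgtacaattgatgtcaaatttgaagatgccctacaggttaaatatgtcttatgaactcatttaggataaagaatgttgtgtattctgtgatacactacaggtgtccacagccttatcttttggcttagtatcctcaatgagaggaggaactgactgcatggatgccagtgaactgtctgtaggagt
Vil1: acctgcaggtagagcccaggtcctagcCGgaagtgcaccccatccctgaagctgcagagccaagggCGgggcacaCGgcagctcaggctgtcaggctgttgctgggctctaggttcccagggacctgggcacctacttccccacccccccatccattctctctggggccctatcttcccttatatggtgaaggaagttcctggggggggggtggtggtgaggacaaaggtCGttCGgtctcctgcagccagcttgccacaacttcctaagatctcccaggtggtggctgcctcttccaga
They hold 1, 4, 4, 0 and 5 CpG, and Cryba1 carries TATAAA with its first base 23 bases before the start. Atp5pb (chr3:105959214-105959513, minus strand), which encodes a subunit of the mitochondrial ATP synthase, is shown because it met the limit on the array although RefSeq gives its promoter 23 CpG. All 26 of its probes were annotated as promoter and none as inside the gene.
Atp5pb: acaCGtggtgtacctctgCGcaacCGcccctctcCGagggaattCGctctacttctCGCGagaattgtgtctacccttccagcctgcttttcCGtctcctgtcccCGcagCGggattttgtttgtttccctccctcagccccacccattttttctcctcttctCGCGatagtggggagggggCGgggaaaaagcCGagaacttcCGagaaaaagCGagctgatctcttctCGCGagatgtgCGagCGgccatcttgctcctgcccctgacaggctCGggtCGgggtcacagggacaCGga
Dhh (chr15:98898491-98898790, minus strand), which encodes the ligand Desert hedgehog, lay just outside the limit, with 1 probe of 2 CpG. It is shown because it was the single gene with exactly 1 probe of 2 CpG, and none denser, whose ratio passed the threshold used below. RefSeq gives its promoter 12 CpG.
Dhh: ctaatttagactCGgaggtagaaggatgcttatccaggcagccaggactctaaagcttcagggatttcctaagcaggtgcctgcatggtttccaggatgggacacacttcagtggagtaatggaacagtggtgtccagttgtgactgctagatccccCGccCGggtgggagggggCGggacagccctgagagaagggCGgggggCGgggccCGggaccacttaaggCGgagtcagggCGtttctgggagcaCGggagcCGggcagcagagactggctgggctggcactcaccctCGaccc

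Probe sequences show the limit itself. The strand of the probes and the genome build of the array's coordinates were not given in the sources used here. Capitals again mark CpG. The highest probes of Grm6 and Cts8 and the lowest probe of Vil1 hold none, the highest single-CpG probe of Dennd2c holds 1, and the only dense probes of Syt8 and Dhh hold 2 each.
Grm6 probe: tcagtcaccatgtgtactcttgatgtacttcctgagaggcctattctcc
Cts8 probe: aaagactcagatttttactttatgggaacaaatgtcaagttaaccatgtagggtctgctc
Vil1 probe: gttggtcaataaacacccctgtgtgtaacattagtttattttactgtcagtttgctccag
Dennd2c probe: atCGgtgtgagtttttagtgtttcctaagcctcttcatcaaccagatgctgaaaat
Syt8 probe: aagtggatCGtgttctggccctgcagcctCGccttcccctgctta
Dhh probe: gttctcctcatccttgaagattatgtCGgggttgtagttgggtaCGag
The log2 ratio of these probes, relative to the median probe of the slide, was 3.56 for Grm6, 2.47 for Cts8, -4.15 for Vil1, 1.55 for Dennd2c, -0.52 for Syt8 and 2.86 for Dhh. Single probes without CpG thus read both far above and far below the slide median, and the values below are means over all probes of a gene.

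The label was checked against RefSeq. Of the 583 genes, 561 were matched to a RefSeq gene, of which 538 are protein-coding, 12 are microRNAs and 8 are long non-coding RNAs, and 433 had a promoter in the sequence table. Their 524 promoters held a median of 3 CpG in 300 bases, against 18 in 10327 promoters of the other genes. Median GC content was 48.3% against 60%. No CpG at all was found in 51 of them (9.73%), against 0.930% of promoters of the other genes. A promoter was called island-like when its GC content was at least 50% and its CpG count at least 0.6 of that expected from its bases. By this measure 58 of the 524 (11.1%) were island-like, belonging to 49 genes, against 57.6% of promoters of the other genes. The label therefore holds for most of the genes and not for these 49, which include Cul3 (a ubiquitin ligase scaffold), Pparg (the regulator of fat cell formation), Lig1 (a DNA ligase) and Atp5pb. Of the 583 genes, 19 had no probe inside the gene and 17 none in the promoter, and 10 of these 36 were island-like in RefSeq.

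TATAAA at 60 to 16 bases before the start was present in 46 of the 524 promoters (8.78%, exact 95% interval 6.50% to 11.5%). The share was 2.20% in promoters of the other genes and 2.57% in all 32851 promoters of the table. Anywhere on the same strand of the 300 bases, TATAAA was found in 16.8%, 5.49% and 8.32%. The other motifs were searched on both strands of the whole promoter. CCAAT was found in 35.1% of the promoters of the 583 genes, 36.8% of those of the other genes and 37.4% of all. GAGAGA was found in 25%, 22.6% and 23.9%, and the octamer ATGCAAAT in 2.67%, 1.52% and 1.74%. The TATA share was thus the motif share that stood apart, beyond its counting interval. The 46 genes with TATAAA in the window had a median Ring1B ratio of -0.12, and the 387 without it -0.21. The 46 were dimmer in input, at a median of 93.6 units against 132. Whether TATAAA bears on the ratio was not tested.

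No gene of the 583 had a mean log2 ratio of 1 or more, which is an immunoprecipitated over input ratio at least 2 times that of the median probe. A count of 0 in 583 allows a share of up to 0.515%, and its exact 95% interval ends at 0.631%. Over all 11184 genes the share was 2.32%, and it was 2.45% (260 genes) among the other genes. The count was 0 of 331 on slide 1 and 0 of 252 on slide 2, where 2.11% and 2.83% of the other genes passed. Intervals cover counting error only, since neighbouring genes share an array and some share DNA. At a lower threshold of 0.5, 8 of the 583 genes (1.37%) passed, against 8.32% of all genes, and 923 (8.71%) of the other genes. The 8 were Cts8, Grm6, Cryba1, Ighg, Ccl8, Atp5f1 (the array's name for Atp5pb), V1rf5 (its name for Vmn1r233) and Sftpd. The means of the 583 genes ran from -1.51 to 0.90 with a median of -0.19, and those of the other genes from -1.74 to 2.31 with a median of -0.09. By slide the medians were -0.21 against -0.12 on slide 1 and -0.16 against -0.05 on slide 2. A mean above 0 was found in 160 of the 583 (27.4%), against 41.0% of the other genes.

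**Figure D1:**
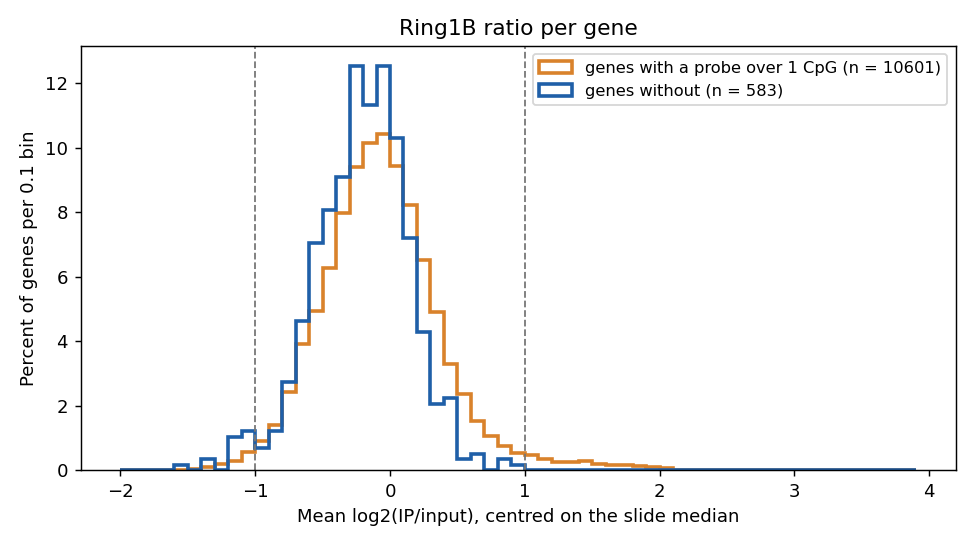
Percent of genes (vertical axis) per 0.1 of the mean log2 ratio of immunoprecipitated over input DNA (horizontal axis) for the 583 genes without CpG-dense probes (blue) and the 10601 other genes (orange), with dashed lines at 1 and -1. The blue curve ends at 0.90, below the upper line, whereas the orange one runs on to 2.31.

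The count of 0 depended on some of the ways in which dim spots, the middle of a gene's probes and centring were handled. With probes left out that stood at the software's floor value in both channels, 4 of 556 genes passed (Cts8, Cryba1, Ccl8 and Ighg), against 3.01% of the other genes. With the median of the probes in place of the mean, Grm6 passed, and without centring on the slide's median probe Cts8 passed. With probes dim in input left out, the count stayed at 0 of 513 genes, against 2.82% of the other genes. With background correction by normexp, with the authors' deposited value table, with loess and with a correction for probe GC the count was 0. It was also 0 in the 534 genes left after the 49 island-like ones were removed.

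The share of genes with a high ratio was larger where the densest probe held more CpG, up to 6. Among 2344 genes whose densest probe held 2 CpG, 2 (0.0853%) reached 1. The share was 1.32% at 3 CpG, 3.06% at 4, 3.45% at 5, 5.54% at 6 and 4.01% at 7 or more. The 583 genes lay at the bottom of this order, with 582 that had at most 1 CpG per probe and Tas2r116, a bitter taste receptor, that had none in 22 probes (mean -0.12). The median ratio was likewise higher, from -0.19 at 1 CpG and -0.18 at 2 CpG to 0.02 at 6 and 0.04 at 7 or more. The classes of 1 and of 2 CpG thus differed little in either measure. Shares at or below -1 ran the other way, from 2.75% at 1 CpG to 0.436% at 7 or more.

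**Figure D2:**
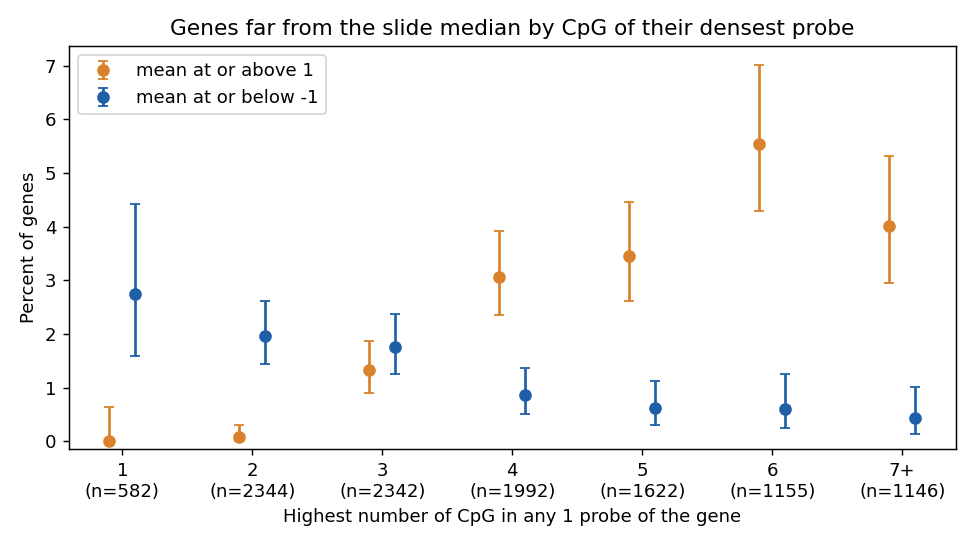
Percent of genes (vertical axis) with a mean log2 ratio at or above 1 (orange) and at or below -1 (blue) by the highest CpG count in any probe of the gene (horizontal axis, with n), with exact 95% binomial intervals; Tas2r116, the single gene without any CpG, is not drawn. The orange points climb from 0 at 1 CpG to 5.54% at 6 CpG, and the blue points fall from 2.75% to 0.436%.

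The 2 genes of the 2-CpG class that reached 1 were named after their values were seen. Prrx1, a homeobox factor of limb and head mesenchyme, had a mean of 1.03 ± 1.18 (SD over 42 probes of 1 array), with 6 probes of 2 CpG. Its 23 probes without CpG averaged 0.52, the 13 with 1 CpG 1.87 and the 6 with 2 CpG 1.12. Dhh had a mean of 1.09 ± 1.82 (SD, 20 probes). Its 9 probes inside the gene averaged 2.32, and its 11 promoter probes 0.09. At 1 or more were 8 of the 9 inside probes and 3 of the 11 promoter probes, and 1 of the 20 probes held 2 CpG.

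Genes on either side of the limit are given as a description. Just inside, by the number of probes with exactly 1 CpG, were Dennd2c (20 such probes), the serotonin receptor gene Htr2a (19) and Fabp4, a fatty acid carrier of fat cells (18). Their means were -0.23, -0.03 and 0.05. Just outside, with a single probe of 2 CpG and the most probes, were Syt8 (-0.09), Fxyd2 (-0.16) and 9630008K15Rik, present name Cnpy1 (-0.75). All 726 genes with exactly 1 probe of 2 CpG had a median of -0.21. Of them 1, Dhh, was at or above 1 and 17 were at or below -1.

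Input signal differed between the sets and is given beside the counts. The median gene among the 583 had a median input signal of 124 units, against 339 for the other genes, and 25% of its probes stood at the floor in both channels, against 10.7%. A probe at the floor in both channels has a ratio near the slide median, which draws the mean of a gene towards 0. All genes were therefore split into 5 classes of equal size by input signal. Input is also the denominator of the ratio, so the classes are not independent of the values compared. The numbers of the 583 genes from the dimmest class to the brightest were 293, 100, 84, 64 and 42, and none was at or above 1 in any class. Of the other genes 2 of 1944, 16 of 2137, 37 of 2152, 79 of 2173 and 126 of 2195 were. These shares were 0.103%, 0.749%, 1.72%, 3.64% and 5.74%. The exact intervals of the 583 genes ended above them, at 1.25%, 3.62%, 4.30%, 5.60% and 8.41%. No class alone could therefore show a lower share for the 583 genes. Medians were lower for the 583 genes in each class, at -0.09 against 0.04 in the dimmest and -0.62 against -0.34 in the brightest.

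**Figure D3:**
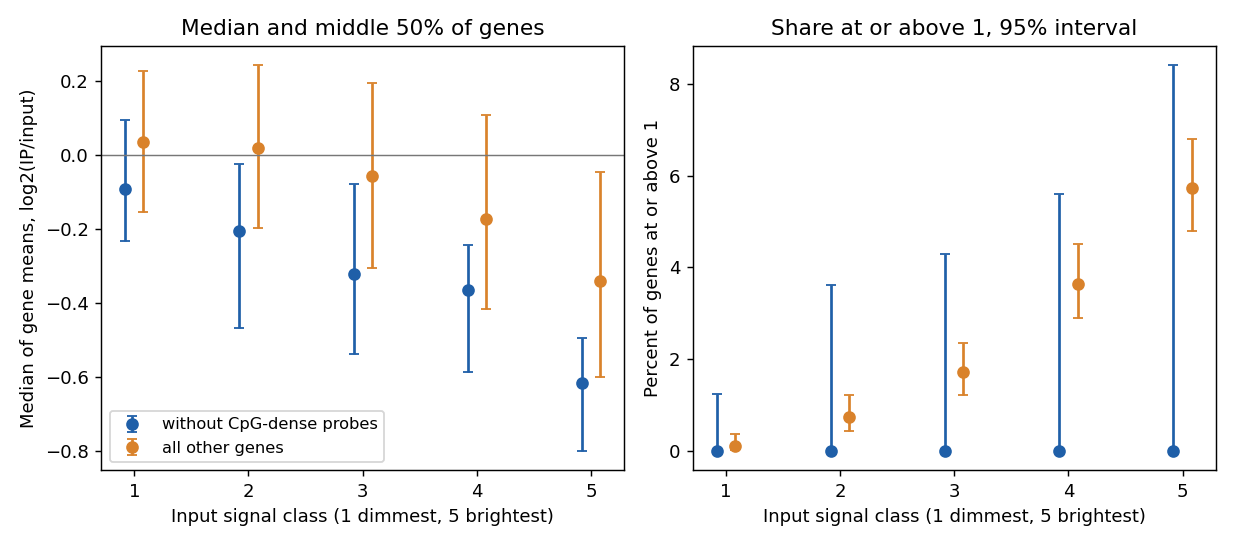
Genes by class of input signal (horizontal axis, 1 dimmest to 5 brightest), blue for the 583 genes and orange for the others. The left panel gives the median of the gene means with bars over the middle 50% of genes, and the right panel the percent of genes at or above 1 with exact 95% intervals; the blue median lies below the orange one in all 5 classes, and no blue gene reaches 1 in any.

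Probes with few CpG could read a high ratio where they lay in other genes. In the 260 other genes at or above 1, the probes with 0 or 1 CpG alone had a median gene mean of 1.19, and 189 (72.7%) still reached 1 by them. By the probes with 2 or more CpG the median was 1.80. These 260 had been chosen by means that include the same probes, so this is a description. Over 10597 other genes, 197 (1.86%) reached 1 by probes with 0 or 1 CpG alone. The comparison of single probes gave the same order at equal CpG, in the mean and in the share at 1 or more. Probes without CpG averaged -0.22 in the 583 genes (11919 probes) and -0.16 in the others, and 13.5% against 18.2% read 1 or more. Those at -1 or less were also fewer in the 583 genes, at 20.6% against 22.6%. Probes with 1 CpG averaged -0.19 against -0.02, and 16% against 23.2% read 1 or more, with 21.2% against 21.5% at -1 or less. Floor values in both channels made up 28.7% and 17.1% of the probes without CpG. Without floor values the means were -0.31 against -0.20, and for probes with 1 CpG -0.27 against -0.02. The shares at 1 or more were then 18.9% against 21.9%, and 21.3% against 26.8% for probes with 1 CpG. At -1 or less they were 28.8% against 27.3%, and 28.2% against 24.8% for probes with 1 CpG.

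The ratio of the 583 genes stayed nearly level across the start of the gene, where a start could be placed. The boundary between promoter and inside probes served as the start. It was placed for 525 of the 583 genes and 9424 of the other genes, and the values here cover these. Bins held 60 to 516 of the 525, so different bins cover different genes. Over 500 bp bins the mean of those of the 583 genes lay between -0.36 (68 genes) and -0.09 (347 genes). It was -0.22 ± 0.05 (SEM over 516 genes) in the last bin before the boundary and -0.26 ± 0.05 (516 genes) in the first bin after it. In the second bin from the upstream end 326 of the 583 genes stood at -0.30 ± 0.06 and 6148 other genes at -0.20 ± 0.02. In the next bin 327 of the 583 genes stood at -0.14 ± 0.06 and 6552 other genes at -0.17 ± 0.01. The other genes stood at 0.11 just before the boundary and at 0.13 ± 0.01 from 500 to 1000 bp inside. The other genes at or above 1 peaked in the same bin, at 2.04. In the last bin before the boundary the 583 genes thus lay further below the others than in the first of these upstream bins. In the next upstream bin they stood slightly above the others. Floor values in both channels made up 29.9% of probes of the 583 genes and 19.7% of the others' in the first of these upstream bins. In the last bin before the boundary they made up 23.3% and 5.68%. Whether this bears on the difference was not tested.

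**Figure D4:**
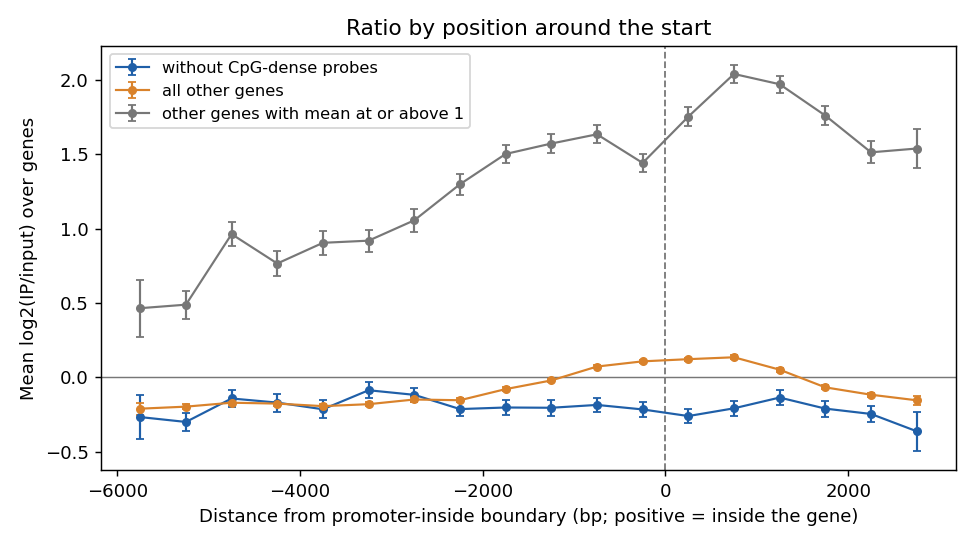
Mean log2 ratio over genes (vertical axis, bars are the SEM over genes) in 500 bp bins of distance from the promoter-inside boundary (horizontal axis, negative in the promoter). Shown are those of the 583 genes with a boundary (blue, 60 to 516 genes per bin), the other genes with one (orange) and the other genes at or above 1 with one (grey). The blue line stays between -0.36 and -0.09 across the boundary, the orange line rises to 0.13 and the grey line to 2.04.

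The 10 genes with the highest ratios all lay below 1. Cts8, a cathepsin of the placenta, was highest at 0.90 ± 0.99 (SD over 20 probes), a 1.87-fold ratio. Its input was dim, with a median of 60.5 units, and 25% of its probes stood at the floor in both channels. Its 9 inside probes averaged 1.11 and its 11 promoter probes 0.74. The high probes lay on both sides of the start, with 5 of 9 inside and 5 of 11 promoter probes at 1 or more. On the array Cts8 covered chromosome 13, 60372074 to 60379282.

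Grm6, the glutamate receptor of retinal bipolar cells that answer to light, was second at 0.84 ± 1.27 (25 probes). It was the one among the 5 highest with no probe at the floor in both channels, and its input median was 345 units. Its 17 promoter probes averaged 1.18, with 11 at 1 or more, and its 8 inside probes 0.10, with 2 at 1 or more. High probes were thus more frequent in the promoter and were found on both sides of the start. The longest stretch of them lay on chromosome 11 from 50808790 to 50811198 in the array's coordinates.

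Cryba1, a crystallin of the eye lens, came next at 0.83 ± 1.01 (25 probes), with 16 promoter probes at 0.85 and 9 inside probes at 0.81. Ighg, the array's name for a gene that was not matched to RefSeq, stood at 0.70 ± 0.96 (23 probes). The chemokine gene Ccl8 stood at 0.67 ± 0.72 (20 probes), with its 7 inside probes at 1.23 and its 13 promoter probes at 0.36. Atp5f1 stood at 0.62 ± 1.14 (26 probes). V1rf5, a vomeronasal receptor, had 61.9% of its 21 probes at the floor in both channels and a mean of 0.59 ± 0.88. Sftpd, the lung surfactant protein D, followed at 0.50, and Tmprss4 (a membrane serine protease) and Casp14 (a caspase of skin cells) at 0.48 each. In each of the 10 the SD over probes was larger than the mean, and the order among them is not resolved.

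High runs of probes were rare. A high run was a stretch of at least 1000 bp, with at least 3 probes of the gene, in which the running mean over probes within 500 bp was at least 1. Such a run was found at 8 of the 583 genes (1.37%), against 10.3% of all genes and 10.8% of the other genes. With probes at the floor in both channels left out the number was 14, against 11.5% of the other genes, and at a running mean of 1.5 it was 2, against 4.48%. At 2000 bp or more 1 of the 583 genes (0.172%) had a run, against 430 (4.06%) of the others and 3.85% of all genes. That gene was Grm6, whose run covered 2409 bp with 9 probes and a mean of 1.64. A run of 1626 bp at 1.17 overlapped Ccl8 and passed its end, with 5 of its 10 probes belonging to that gene. Ighg had 1529 bp at 1.72, and AY026312, unmatched to RefSeq, 1398 bp at 1.31. The remaining runs lay at Saa4 (a serum amyloid protein, 1159 bp, 1.69), Psg29 (a pregnancy-specific glycoprotein, 1150 bp, 1.27), Apcs (serum amyloid P, 1136 bp, 1.44) and Cts8 (1089 bp, 1.38).

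The mean over a gene could hide such a run. Saa4 had a mean of -0.18 ± 1.79 over 33 probes. Its 10 inside probes averaged 0.98, with 5 at 1 or more, and its 23 promoter probes averaged -0.68, with 11 at -1 or less. Psg29 was split the same way, with 15 inside probes at 0.89 and 11 promoter probes at -0.12. At Apcs the order was turned, with 26 promoter probes at 0.42 and 6 inside probes at -0.17. Runs on the low side were found at 54 of the 583 genes (9.26%), against 11.5% of all genes and 11.6% of the other genes, so low runs outnumbered high ones among the 583 genes.

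**Figure D5:**
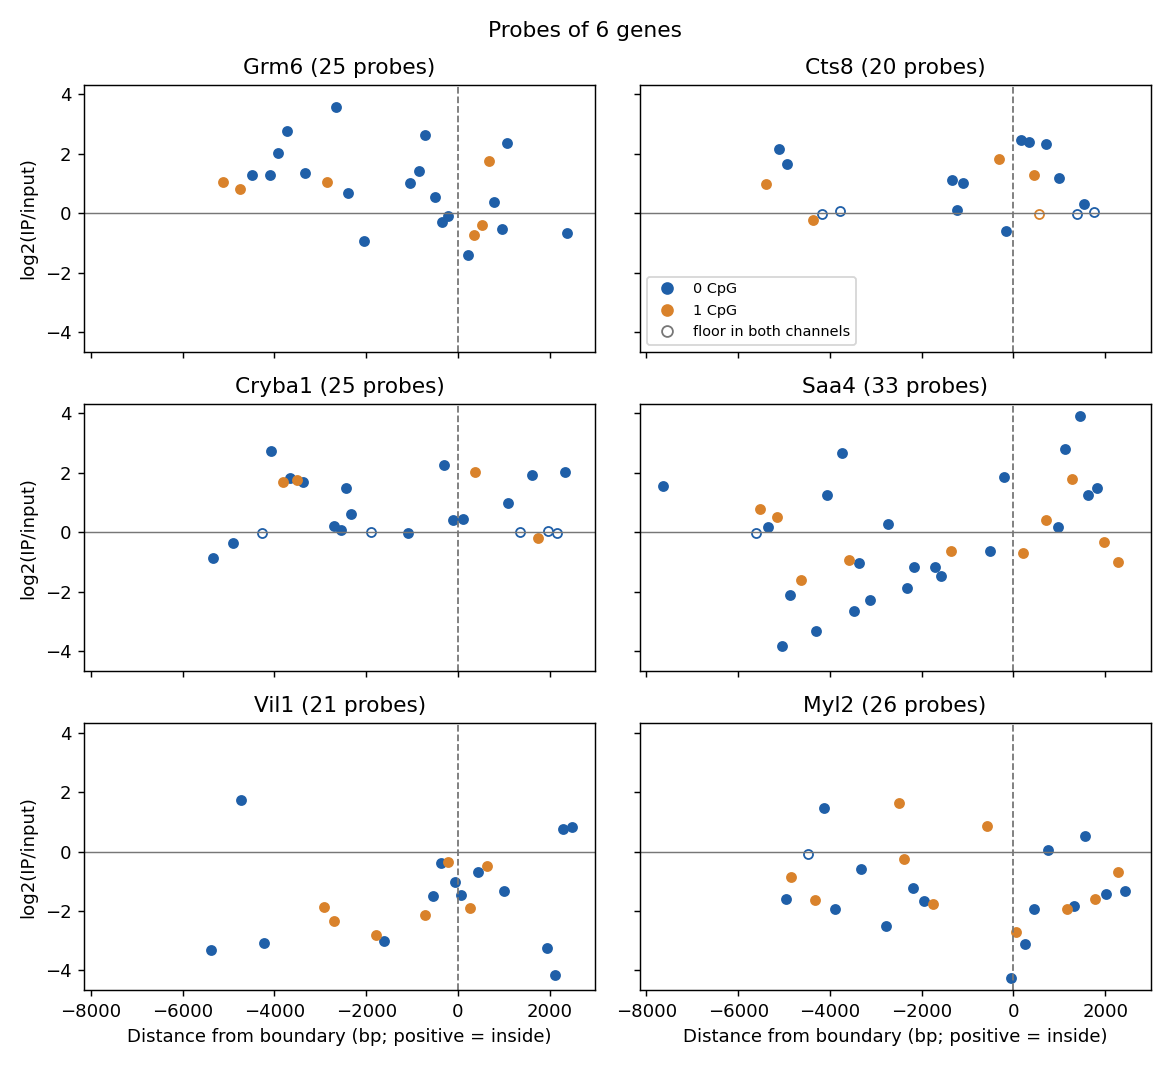
Log2 ratio of each probe (vertical axis) by distance from the promoter-inside boundary (horizontal axis, negative in the promoter) for the 3 highest genes (Grm6, Cts8 and Cryba1), Saa4, and 2 of the lowest (Vil1 and Myl2), blue for probes without CpG, orange for probes with 1 CpG, open symbols for probes at the floor in both channels. In Grm6 the 17 promoter probes average 1.18 and the 8 inside probes 0.10, in Saa4 the inside probes average 0.98 and the promoter probes -0.68, and in Vil1 and Myl2 most probes lie below 0.

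On the low side 16 of the 583 genes (2.74%, exact 95% interval 1.58% to 4.42%) were at or below -1, against 1.27% of all genes and 1.19% of the other genes. The interval for the 583 genes lies above the share in the others. At or below -0.5 the count was 111 (19.0%), against 15% of all genes. Most of the low genes lay in the bright classes of input. Input is the denominator of the ratio, and low values were more frequent in bright classes among the other genes too. Their share at or below -1 was 0.0514% in the dimmest class and 4.33% in the brightest. Of the 16, 7 were among the 64 genes of the fourth class (10.9%) and 6 among the 42 of the brightest (14.3%), where 0.874% and 4.33% of the other genes were that low. Of the remaining ones 2 lay in the second class and 1 in the middle class. The count moved with the processing. It was 1 (0.172%) with normexp and 1 with the authors' deposited value table, against 0.0849% and 0.0660% of the other genes. It was 3 (0.515%) without centring, against 0.358%, and 68 of 513 (13.3%) without probes dim in input, against 5.29%. The cause was not tested.

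The lowest was Vil1, villin of the intestinal brush border, at -1.51 ± 1.53 (21 probes), with an input median of 976 units and no probe at the floor in both channels. Its 12 promoter probes averaged -1.67 and its 9 inside probes -1.30, so both sides were low. The microRNA mmu-mir-468 stood at -1.39 ± 1.46 (24 probes) and Lig1 at -1.36 ± 1.74 (25 promoter probes and none inside). Myl2, the myosin light chain of the heart ventricle, stood at -1.17 ± 1.37 (26 probes), with 11 inside probes at -1.45 and 15 promoter probes at -0.96. Guca1a, an activator of guanylate cyclase in photoreceptors, was at -1.16, and 4930579J09Rik, present name Ppp1r32, at -1.16. Ces7, present name Ces5a, a carboxylesterase, was at -1.14 and C3, the central protein of complement, at -1.12. Slurp1, a secreted protein of skin, was at -1.10 ± 1.51 over 53 probes, and Syngr4, with 20 inside probes and none in the promoter, at -1.09. The rest of the 16 were Klre1, Sgk2, Npm2, Nalp9b, Pcp4 and Cd300c, all at -1.09 or above.

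By name patterns and lists of names, 252 of the 583 genes (43.2%) fell into at least 1 of 47 gene families and lists. Some genes, such as Cd300c, fell into more than 1. Totals below count the 11184 genes, of which 5.21% were among the 583. Receptors that sense chemicals come first. Vomeronasal receptors, which detect pheromones, contributed 21 of 35 (60%), with a median of -0.06, from -0.71 (V1re4) to 0.59 (V1rf5). Bitter taste receptors contributed 10 of 21, with a median of -0.12, from -0.47 (Tas2r106) to 0.04 (Tas2r118). Trace amine receptors contributed Taar4 (0.29) and Taar5 (-0.33). The vomeronasal and taste members were dim, each with a median input of 74.1 units, and none of them was at or above 1. The 14 vomeronasal and 11 taste receptors outside the limit had none at or above 1 either.

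Immune genes formed the next group. Interleukins and their receptors contributed 9 of 56, with a median of -0.21, from -0.72 (Il22ra2, a soluble receptor that binds interleukin 22) to 0.15 (Il24). Il2, the growth factor of T cells, stood at -0.04. Lectin-like and killer cell receptors contributed 8 of 26, with a median of -0.25, from -1.04 (Klre1) to 0.14 (Klri1), and both of these had SDs over 1.6 (29 or more probes). Chemokines contributed 5 of 29, with Ccl8 highest (0.67) and Ccl7 lowest (-0.67). Both encode ligands of chemokine receptors, and 4 of 13 such receptors were members, from -0.40 (Blr1) to 0.27 (Ccr4). Mast cell proteases and granzymes contributed 4 of 10, from -0.84 (Mcpt1) to 0.13 (Cma1). None of the interleukins, chemokines or lectin-like receptors outside the limit reached 1. Not every immune family contributed as much. CD antigens contributed 4 of 57 (7.02%), against 5.21% of all genes, and defensins 0 of 8.

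Enzymes and secreted proteins of liver, gut and reproductive tissues followed. Cytochromes P450 contributed 10 of 33, with a median of -0.40, the lowest among the families with at least 8 members. They ran from -0.78 (Cyp4f14) to 0.07 (Cyp2j13), with Cyp7a1, the rate-limiting enzyme of bile acid synthesis, at -0.08 and Cyp26b1, which breaks down retinoic acid, at -0.33. Of the 23 cytochromes outside the limit 2 were at or above 1. Serpins, inhibitors of proteases, contributed 9 of 33, with a median of -0.19, from -0.46 (Serpinb8) to 0.19 (Serpinb13). Names of the prolactin family, hormones of pituitary and placenta, matched 8 of 32, with a median of -0.14, from -0.30 (Prlpj, present name Prl3c1) to 0.06 (Prlpc1, present name Prl8a6). One of those 8, Prpf18, is a splicing factor caught by the name pattern. Among pancreas genes Ins2, an insulin gene, stood at -0.73 ± 1.04 (38 probes), Iapp at -0.41, Reg2 at -0.10 and Reg3g at 0.17. Other families of tissue proteins contributed few genes or none. Keratins contributed 2 of 41 (4.88%), against 5.21% of all genes. Apolipoproteins contributed 0 of 9, caseins 0 of 5 and Adam genes 0 of 34.

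Developmental transcription factors were nearly absent from the 583 genes, at 0.459% of their list. Of 218 genes with names of developmental transcription factors 1 met the limit, Neurod4, a neural helix-loop-helix factor, at 0.03 ± 1.04 (36 probes). Its input was dim, with a median of 61.1 units. The 217 outside the limit had a median of 0.98, with 108 at or above 1 and none at or below -1. Near the 5.21% share over all genes, 4 of 71 names of developmental signalling genes (5.63%) met the limit. They were Wnt5b (-0.79), Inhbc (-0.06), Gdf5 (0.15) and the receptor gene Bmpr1b (0.16), and 8 of the 67 outside it were at or above 1. The list that held 108 of the 260 genes at or above 1 thus gave 1 of the 583 genes.

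RIKEN transcripts, many of little known function, contributed 70 of 1288 (5.43%), near the 5.21% share over all genes. Their median was -0.12, from -1.16 (4930579J09Rik) to 0.44 (4930417G10Rik, present name Fam228a). Of the other 1218, 14 were at or above 1. MicroRNA genes contributed 13 of 115, with a median of -0.07, from -1.39 (mmu-mir-468) to 0.39 (mmu-mir-28). Of the 102 microRNAs outside the limit 6 were at or above 1.

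Neighbours of the 583 genes were read the same way. The nearest other gene of the 11184 lay within 10000 bp for 138 of them, and none of those neighbours had a mean of 1 or more. Among the other genes 3030 had such a close neighbour, which was at or above 1 for 47 (1.55%). At any distance the nearest gene was at or above 1 for 5 of the 583 genes (0.858%) and for 194 of the others (1.83%). For 92 of the 583 genes the nearest tiled gene was itself among the 583, of which none was at or above 1. These neighbour shares were given no interval, and whether they differ was not tested. The 49 island-like genes had a median of -0.18, and the 384 with a RefSeq promoter that was not island-like -0.20. The highest of the 49 was Atp5f1 at 0.62. Pparg stood at 0.11, Cul3 at -0.26, the kinase gene Syk at -0.67 and Wnt5b at -0.79.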

How the data were processed

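Both slides were scanned as Agilent 2-colour arrays, and Agilent Feature Extraction 9.1.3.1 made the deposited files, per their file headers. Its processed signals, per the file headers, are intensity values with background subtracted and dyes scaled, and it gives the dimmest spots a floor value. The log10 ratios in those files, per the file headers red over green, served as a check of direction. The authors' deposited value table holds the log2 ratio of mean signals, neither background-subtracted nor centred, which was checked on the array files (largest difference 5.0e-05).

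The value used was log2 of red (immunoprecipitated) over green (input) processed signal minus the median probe of the slide (0.23 on slide 1, 0.16 on slide 2), averaged per gene. Of 237195 and 237185 probes, 141 and 17 marked as outliers were left out of values but kept for the CpG limit. With 1 array per promoter nothing was tested. SDs are over probes of 1 array, which are not replicates; precision is limited by the number of arrays.

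Alternatives were other backgrounds (normexp, offset 50, limma 3.58.1 in R 4.3.3), loess, no centring, probe GC, dim probes, probe medians, probe minimums, CpG limits and thresholds, with removal of island-like genes and of genes with few probes on either side added after the data were seen. Other computations used Python 3.11.15. The procedure was tested on simulated data. Named genes were the 10 highest and lowest means, the 5 longest high runs, the extremes of families with at least 8 members, and 3 genes on either side of the limit; genes of smaller groups were named as examples after their values were seen. Families were set by name patterns and lists of names. The genes, lists and rules were chosen with earlier results of these data known. Promoters came from RefSeq, GRCm38.p6. For the array's own coordinates, the genome build is not given in the labels or file headers used here.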

Additional observations from a re-analysis of the deposited data

How the results depend on the processing

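Only 1 array read each promoter, so no setting could be checked against replicates, and no paired analysis was possible because the slides share no probe. Dim input is a further limit for the 583 genes. The number at or above 1 was 0, and it was 0 in all settings except those named next, with shares of the other genes in parentheses. No centring gave 1 (3.59%), the median of the probes 1 (2.91%) and no floor probes 4 of 556 (3.01%). Threshold 0.5 gave 8 (8.71%), and a limit of 2 CpG per probe gave 2 of 2927 (3.12%), Dhh and Prrx1. The number at or below -1 was 16. This count was 3 without centring (0.358% of the other genes), 1 with normexp (0.0849%) and 1 with the deposited value table (0.0660%). It was 31 of 556 without floor probes (2.56%), 68 of 513 without probes dim in input (5.29%) and 10 by probe medians (1.25%). It was 37 of 1086 at a minimum of 10 probes (1.92%), 3 of 193 at 30 (0.741%) and 62 of 2927 at a limit of 2 CpG (0.969%). It was 0 for the 1 gene with no CpG allowed (1.27%), 111 at 0.5 (14.8%) and 1 at 1.5 (0.0283%). By slide it was 9 on slide 1 (1.24%) and 7 on slide 2 (1.14%). The median was -0.19 (order-statistic 95% interval -0.22 to -0.15). Its sign turned without centring (0.015). It was -0.29 with loess, -0.29 without floor probes, -0.49 without dim probes, -0.0088 by probe medians and -0.12 for the single gene without CpG. In each of these settings it lay below the median of the other genes. High runs numbered 8, and 2 at a running mean of 1.5, 14 without floor probes and 54 with the sign turned. TATAAA was found in 8.78% of promoters in the window and in 16.8% anywhere on the strand. Of genes with a probe of 4 or more CpG 3.84% were at or above 1, and of all other genes 2.45%.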

Other observations

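On the X chromosome 47 genes with at least 20 probes had no probe over 1 CpG, and none was at or above 1, which allows a share of up to 6.38%. Their median was -0.13, from -0.91 (1700054O13Rik) to 0.33 (mmu-let-7f-2). Of 414 X-linked genes with a denser probe 9 were at or above 1, the highest being Bcor at 1.54, a gene that encodes a corepressor found in a PRC1 variant. Olfactory receptors, which detect odours, gave 220 genes without a probe over 1 CpG and 191 with one. None of either set was at or above 1. Without a denser probe they ran from -1.76 (Olfr374) to 0.46 (Olfr20), with 3 at or below -1, and with one from -0.98 (Olfr398) to 0.56 (Olfr711), with none that low. The medians were -0.09 and -0.10, and thus close together.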
